A study of Homo sapiens with 11 samples.

Results

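Glucocorticoid receptor (GR) binding in HEK293 cells was uneven along the genome, and a small set of megabases held a large number of GR sites. Windows of 1 Mb on a fixed grid were called GR-dense when the GR list of the wild-type line or of the 3KR line held at least 20 sites. Of 2313 windows with any GR site, 91 met the rule, which is 3.93%. They held 3452 of 30115 GR sites, made up of 1352 of the 11259 sites of the wild-type line (12.01%) and 2100 of the 18856 sites of the 3KR line (11.1%). The windows were chosen by GR site number, so GR density, spacing and GR tags inside them are described here without a test. SUMO-2/3 sites and control-line GR sites were not used to choose the windows, but many of them overlap GR sites that were.

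GR is a nuclear receptor that is held in the cytoplasm by chaperones and moves to chromatin when it binds a glucocorticoid. It recognises short response elements and often occupies several nearby enhancers of the same target gene. SUMO-2 and SUMO-3 are small proteins that are joined to lysines of transcription factors and other chromatin proteins, GR included, and that are known mainly for restraining transcription. A receptor with its SUMO acceptor lysines changed to arginine can still bind hormone and DNA.

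Chromatin immunoprecipitation with sequencing (ChIP-seq) was done in isogenic lines of HEK293, a human embryonic kidney line, made by recombination of a transgene into a prepared site with the Flp-In System. The groups were the line stably expressing wild-type GR, the line stably expressing GR3KR, the SUMOylation-defective receptor (3KR), and an FRT control line without a GR transgene. Every group spent 72 h in medium depleted of steroids, followed by 1 h with 100 nM of the synthetic glucocorticoid dexamethasone. GR and SUMO-2/3 were mapped in duplicate in both transgene lines, and GR was mapped in 1 library of the control line. Each line is 1 cell population, so the spread between independently made lines was not measured. The duplicate libraries of a group share 1 list of sites, each with its own tag count, so a number of sites has no replicate error. Nothing in the labels says more of the duplicates than that they were biological, and agreement between them may be partly technical.

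Tags in the distinct peaks of a list ranged from 1109129 to 4600440 per duplicate library and came to 208776 in the control-line library. A wide peak of 1 library can be cut into several listed sites by the narrower peaks of its duplicate, which repeats its tags at each of them. Such cutting concerned 8.73% of the wild-type members and 7.33% of the 3KR members, against 4.04% and 3.44% of GR sites elsewhere. With such sites joined into 1, 82 of the 91 windows remained dense and no other window became dense. The longer list of the other 9 then held at least 18 sites.

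The dense windows lay on 21 chromosomes. Chromosome 1 held 21, chromosome 2 held 9 and chromosome 10 held 7, while chromosomes 13 and 19 held 0. By share of the windows with a GR site, chromosome 1 led with 10.4%, followed by chromosome 14 with 7.04%. Dense windows adjoined another dense window in 18 cases, forming 8 runs. Between 229 and 236 Mb of chromosome 1, 6 of 7 windows were dense, and this stretch held 81 wild-type and 155 3KR GR sites, 9 control-line GR sites, 89 wild-type SUMO-2/3 sites and 95 3KR SUMO-2/3 sites. The neighbours of dense windows held a median of 10 sites in their longer list, against 7 over all windows with a GR site.

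The longer 3KR list decided most of the membership. By that list alone 76 windows qualified, 13 qualified by both lists, and 2 by the wild-type list alone, the chromosome 14 windows from 90 to 91 Mb and from 95 to 96 Mb. A dense window held 14.9 ± 5.09 wild-type sites (SD over 91 windows, range 6 to 31) and 23.1 ± 3.30 3KR sites (range 13 to 33). The 3KR list had more listed sites in 85 windows and fewer in 6. Joining sites of 1 peak left 22 wild-type and 22 3KR sites in the chromosome 3 windows from 72 and 156 Mb. Before joining these held 22 and 23, and 25 and 22. Over all members the 3KR list was 1.55 times as long as the wild-type list, against 1.69 times elsewhere. When the 3KR list was shortened to the length of the wild-type list, 17 windows met the rule.

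**Figure D1:**
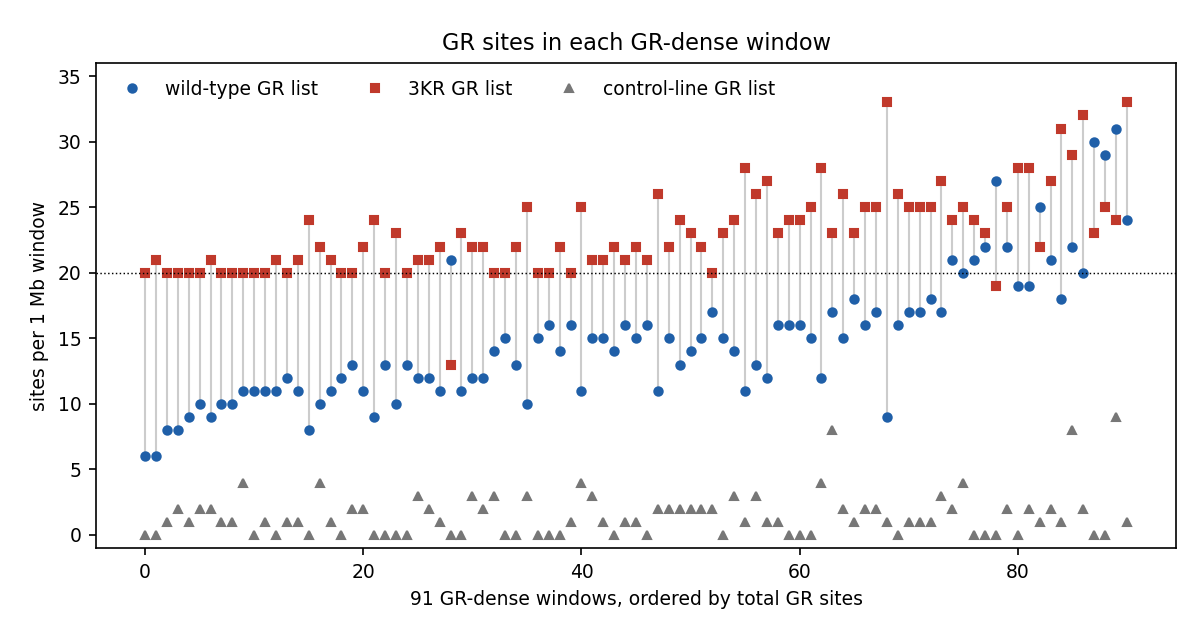
GR sites in each of the 91 GR-dense windows, ordered from left to right by the sum of both GR lists, with circles for the wild-type list, squares for the 3KR list, triangles for the control-line list and a dotted line at 20 sites. The 3KR count lies above the wild-type count in 85 windows, and the control-line count runs from 0 to 9.

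At the edge of the rule, 41 windows had 19 sites in their longer list and 21 windows had 20. The windows with 19 held on average 1.02 control-line GR sites, 8.76 wild-type SUMO-2/3 sites and 5.88 3KR SUMO-2/3 sites. The windows with 20 held 1.05, 9.24 and 6.90. The dense windows are thus the upper end of a continuous range of densities, with no gap at the threshold.

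The windows were ranked by their longer GR list, with ties ordered by the sum of both lists, and the first 10 are given here with positions in hg19. The windows from 35 Mb of chromosome 6 and from 22 Mb of chromosome 10 tied with the last 2 at 28 sites in the longer list. By the sum of both lists the window from 94 Mb of chromosome 12, with 21 and 27 sites, would precede those last 2. By listed sites, the window from 70 to 71 Mb of chromosome 15 led with 24 wild-type and 33 3KR sites. The window from 232 to 233 Mb of chromosome 1 also had 33 3KR sites but only 9 wild-type sites, and 24 of its 3KR sites overlapped no wild-type site. In the window from 28 to 29 Mb of chromosome 2 there were 20 wild-type and 32 3KR sites. Wild-type sites were the more numerous in the window from 37 to 38 Mb of chromosome 8 (31 against 24), from 100 to 101 Mb of chromosome 14 (30 against 23) and from 49 to 50 Mb of chromosome 20 (29 against 25). The other 4 were the windows from 20 Mb of chromosome 9 (18 and 31), 69 Mb of chromosome 7 (22 and 29), 89 Mb of chromosome 15 (19 and 28) and 40 Mb of chromosome 22 (19 and 28), each with more 3KR sites. The order changed when sites of 1 peak were joined. The longer list then held 32 sites in the chromosome 2 window, 31 in that of chromosome 1 and 30 in that of chromosome 8. It held 29 in the chromosome 15 window from 70 Mb and in the chromosome 9 window.

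**Figure D2:**
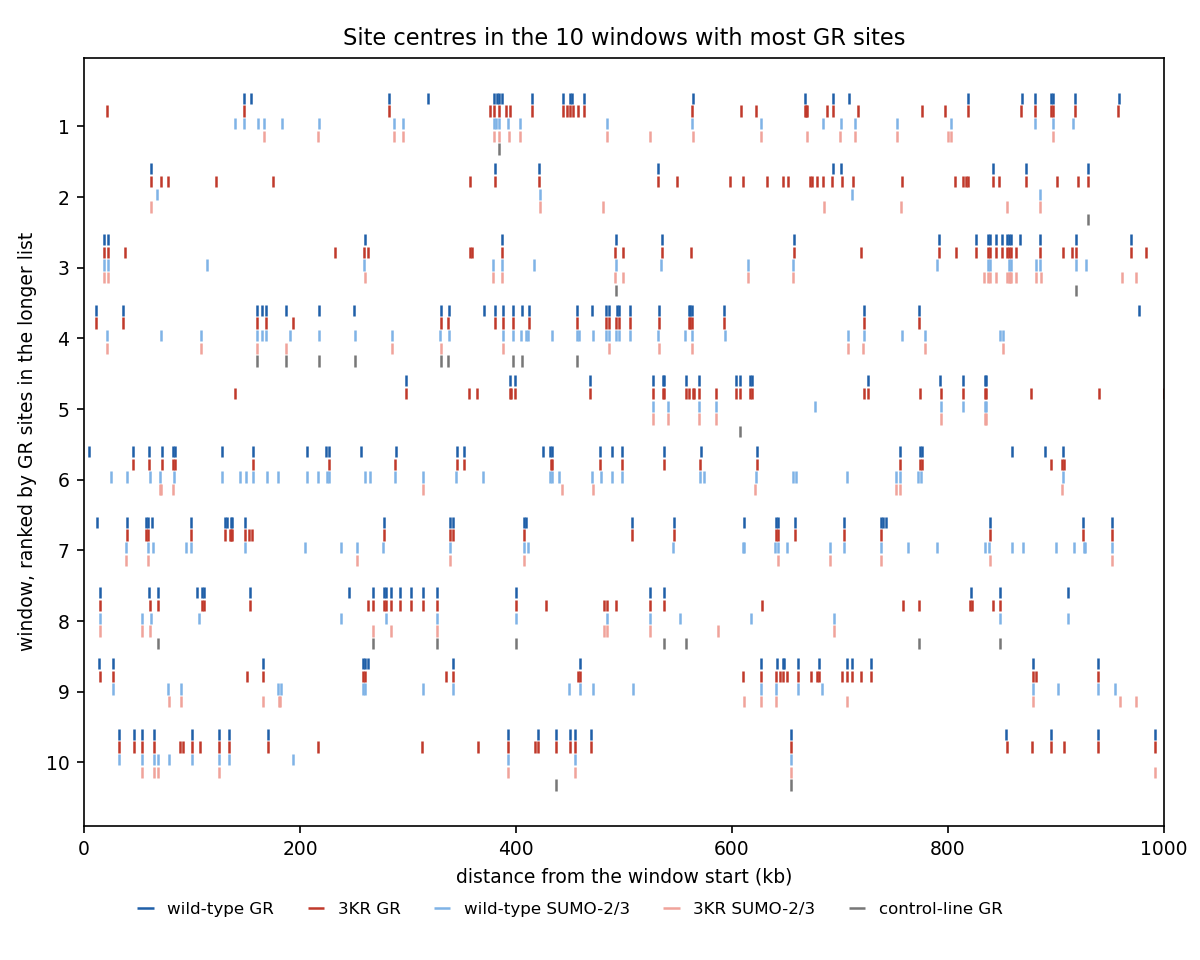
Centres of all listed sites, as distance in kb from the window start, in the 10 windows with most listed GR sites. The rank order by listed sites runs from the chromosome 15 window from 70 Mb at the top to the chromosome 22 window from 40 Mb at the bottom. Within each window the rows from top to bottom are wild-type GR, 3KR GR, wild-type SUMO-2/3, 3KR SUMO-2/3 and control-line GR. The fourth and sixth windows, on chromosomes 8 and 14, show 36 and 39 wild-type SUMO-2/3 sites beside 14 and 10 of the 3KR line.

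The best-ranked GR site of each of these windows was read in every library, and some are given here. None had a control-line site, and all but that of the chromosome 1 window had SUMO-2/3 listed in both lines. In the chromosome 15 window from 70 Mb the best site was chr15:70896529-70897640. It had 402 and 686 GR tags in the wild-type libraries, 560 and 581 in the 3KR libraries, and no control-line site. SUMO-2/3 was listed there with 417 and 556 tags in the wild-type line and with 180 and 432 tags in the 3KR line. The GR tags of the 2 lines overlapped at this site, as they did at the best site of the chromosome 20 window, chr20:49737140-49739005, with 730 and 1363 wild-type tags and 832 and 634 3KR tags.

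At chr1:232061335-232063333, the best site of the window with 24 sites of the 3KR list alone, GR tags were 250 and 329 in the wild-type libraries and 556 and 468 in the 3KR libraries. Both 3KR libraries were above both wild-type libraries there, and SUMO-2/3 was listed in the 3KR line only, with 120 and 205 tags. The best site of the chromosome 2 window, chr2:28884054-28885923, had 501 and 736 wild-type tags and 770 and 780 3KR tags, with SUMO-2/3 listed for each line. The best site of the chromosome 7 window, chr7:69060461-69062088, had 779 and 1349 wild-type GR tags against 726 and 631 in the 3KR line, so that both wild-type libraries were higher. Its SUMO-2/3 tags were 556 and 1006 in the wild-type line and 151 and 350 in the 3KR line. Tag counts are not scaled for depth, so such orders hold for these libraries as deposited.

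Members stood closer together than other GR sites, as the rule requires. The median distance between the centres of a site and its nearest neighbour of the same list was 12.9 kb for wild-type members and 32.8 kb elsewhere, and 9.14 kb for 3KR members and 21.6 kb elsewhere. A neighbour within 5 kb was present at 29.7% of wild-type and 33.1% of 3KR members, against 18.1% and 21.3% elsewhere. Sites nevertheless spread over most of a window. Of the 10 stretches of 100 kb in a dense window, a median of 8 held a 3KR site (range 5 to 10), and the longest distance without a 3KR site had a median of 195 kb (range 92.6 to 483 kb).

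Some sites formed close local groups. When sites with centres at most 10 kb apart were linked, the longest chain of 3KR sites in a window had a median of 4 sites and a maximum of 9. Such a chain of 9 spanned 18.6 kb at chr6:35682833-35701430, where 8 of the sites overlapped SUMO-2/3 of the same line, 7 a control-line GR site and 6 a wild-type GR site. The other spanned 38 kb at chrX:106953554-106991553, with 2, 6 and 6 sites in the same classes. The chromosome 6 chain owed much of its length to wide peaks cut into pieces, since its last 6 listed sites, including a stretch of 6 bp, joined into 1 and left 4. The chromosome X chain kept 8. The overlaps counted in these chains were not all separate. Numbered from the start of the chromosome 6 chain, sites 4 to 8 overlapped the same control-line site of 822 tags. Sites 4 to 9 carried the same 3KR SUMO-2/3 peak of 3098 tags. In the chromosome X chain, sites 2 and 3 overlapped the same control-line site of 463 tags. A chain at chr2:28835770-28863272, named after its values were seen, held 8 3KR sites in 27.5 kb and kept all 8 after joining. Of these, 7 overlapped SUMO-2/3 of the same line, 7 a wild-type GR site and none a control-line site.

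Within the chromosome 6 chain, the most heavily tagged site was chr6:35692841-35696732, 3892 bp wide. GR tags there were 874 and 2331 in the wild-type libraries, 1756 and 1996 in the 3KR libraries and 822 in the control line. SUMO-2/3 tags were 843 and 3480 in the wild-type line and 884 and 3098 in the 3KR line. Apart from 874 and 843, these values belong to wide peaks that were also read at other sites of the chain. The ranges of the 2 transgene lines overlapped for both antibodies. The outermost site, chr6:35682833-35683926, was listed in both lines with 334 and 468 wild-type tags and 510 and 468 3KR tags, and had no control-line site.

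Members were somewhat stronger and wider than other GR sites in every library. The median of wild-type GR tags was 154 in the first library and 309 in the second, against 128 and 234 elsewhere. For 3KR sites it was 226 and 212, against 192 and 168 elsewhere. Median fold enrichment over the background of the peak caller, as the authors deposited it, was 16.7 and 14.5 at wild-type members against 15.6 and 13.2 elsewhere, and 20.5 and 14.2 at 3KR members against 19.8 and 13.1. Median site width was 1048 bp against 963 bp in the wild-type list and 1040 bp against 943 bp in the 3KR list. Strength, width and density therefore move together in these lists. The SUMO-2/3 and control-line overlaps that follow are given by strength and density, but were not split by width.

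Most wild-type members were also bound in the 3KR line. A shared site overlapped a site of the other list by at least 1 bp, as 88.9% of all wild-type and 53% of all 3KR sites did. Among members, 1242 wild-type sites were shared (91.9%, against 88.5% elsewhere) and 110 were not. Of the 3KR members 1232 were shared (58.7%, against 52.3% elsewhere) and 868 were not. The wild-type difference turned to -6.92 percentage points when both lists had to hold 20 sites, to -7.93 with lists of equal length and to -1.92 with centres within 200 bp, so its direction depends on how the lists are read. The 868 sites of the 3KR line alone lay a median of 21.4 kb from the nearest wild-type site, against 61.8 kb elsewhere, and 31.6% of them were within 10 kb of it, against 16.4% elsewhere. Dense windows also held more wild-type sites, a mean of 14.9 against 4.46 in other windows, so a shorter distance goes with the choice of windows.

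SUMO-2/3 was listed more often at members than at other GR sites, whichever the line. Of the wild-type members, 598 of 1352 overlapped a SUMO-2/3 site of that line (44.2%, exact 95% interval 41.6 to 46.9), beside 37.4% of all wild-type GR sites and 36.4% of those elsewhere. In the 3KR line 22.7% of members did (interval 20.9 to 24.5), beside 15.6% of all 3KR sites and 14.7% elsewhere. The differences were 7.80 percentage points (95% interval 4.99 to 10.6) and 7.96 points (6.09 to 9.83). These intervals cover counting error over sites, which are not independent replicates. The share rose with the density of the window along the whole range, from 26.4% in windows with 1 to 4 sites to 33.6%, 38.2% and 41.3% in the next classes of the wild-type list, and from 7.56% to 13.1%, 15.8% and 17.99% in the 3KR list.

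**Figure D3:**
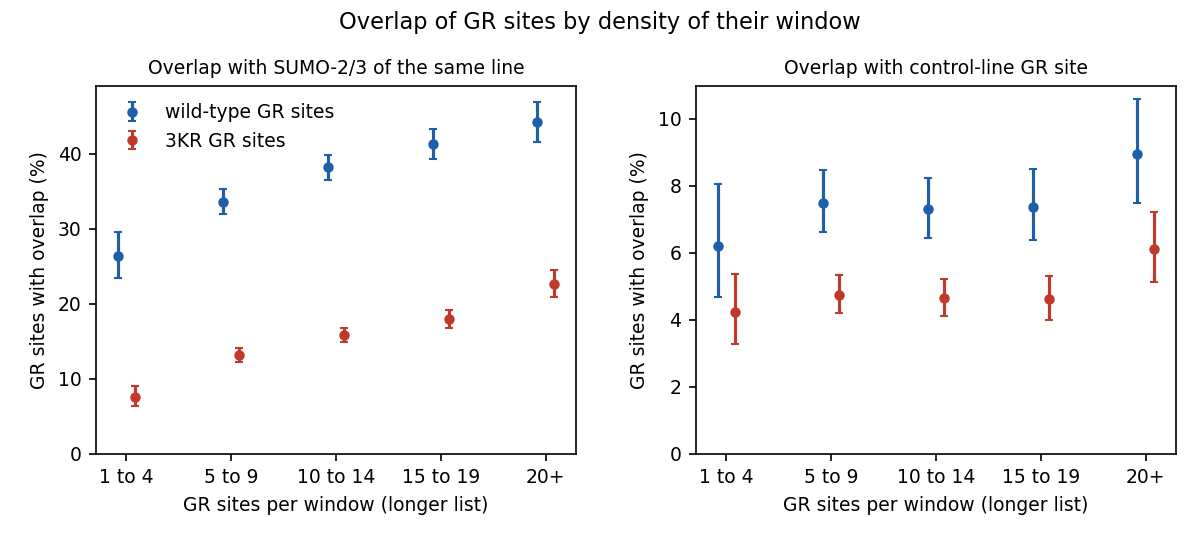
Share of wild-type (blue) and 3KR (red) GR sites that overlap a SUMO-2/3 site of the same line (left) or a control-line GR site (right), by the number of GR sites in the longer list of their window, with exact 95% intervals over sites. The SUMO-2/3 share climbs through all 5 classes in both lines, while the control-line share is between 6.21% and 7.50% in the lower 4 classes of the wild-type list and 8.95% in dense windows.

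A large part of the wild-type difference moved with the strength of the GR site. Within the top quintile of GR fold enrichment, SUMO-2/3 was listed at 87.9% of wild-type members and 85.8% of other sites, and in the second quintile at 48.6% and 48.1%, differences whose intervals include 0. Only in the fourth quintile did the interval exclude 0, with 21.5% against 15.1%. In the 3KR line the interval of the difference excluded 0 in 4 of 5 quintiles, among them 56.2% against 45.6% in the top quintile, 21.9% against 13.5% in the second and 12.3% against 7.40% in the middle one. The mean over quintiles was 3.19 points in the wild-type line and 5.29 points in the 3KR line, and with centres within 200 bp in place of any overlap the differences were 1.87 and 4.76 points. With 20 sites required in both lists or with lists of equal length, the wild-type difference was 13.3 and 14.7 points.

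**Figure D4:**
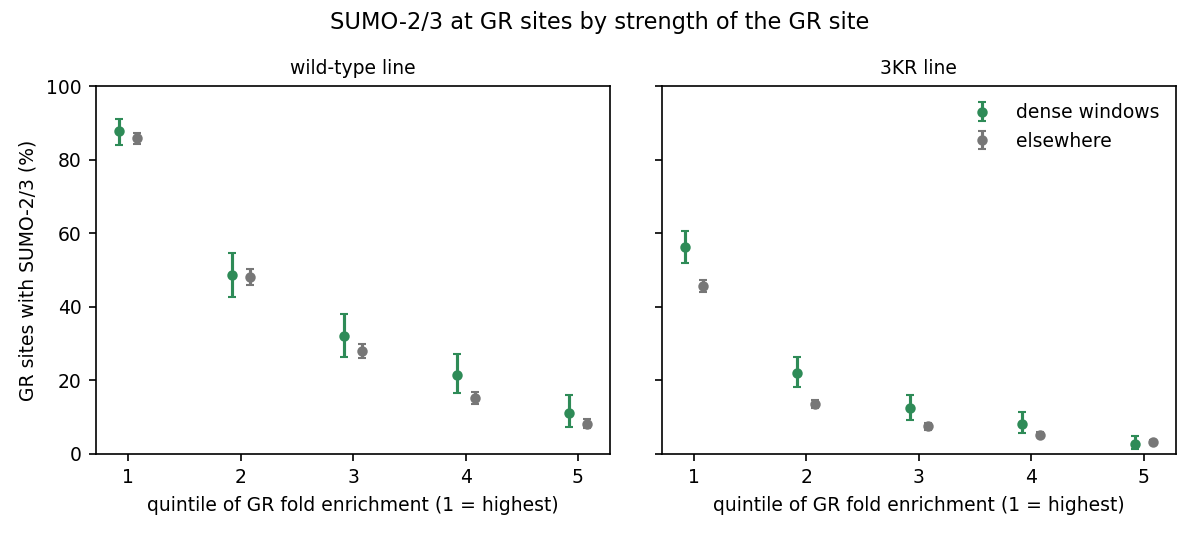
Share of GR sites that overlap a SUMO-2/3 site of the same line, by quintile of GR fold enrichment, for members (green) and other sites (grey), with exact 95% intervals over sites. In the wild-type panel the top 2 quintiles lie together at 87.9% and 85.8% and at 48.6% and 48.1%, while in the 3KR panel members lie above the other sites in the top 4 quintiles.

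Among sites that both lines shared, SUMO-2/3 of both lines was more frequent in dense windows. Both SUMO-2/3 lists held it at 27.7% of shared wild-type members (interval 25.2 to 30.3), against 18.98% of shared sites elsewhere (18.2 to 19.8). SUMO-2/3 in the wild-type line alone was present at 17.95% against 20.4%, in the 3KR line alone at 6.68% against 4.71%, and in neither line at 47.7% against 55.9%. Wild-type GR sites overlapped SUMO-2/3 of the 3KR line at 31.7% of members and 21.2% elsewhere, beside 22.4% of the whole list. For 3KR GR sites and SUMO-2/3 of the wild-type line it was 28.9% against 22.4%, beside 23.1%. Of the 110 wild-type members without a 3KR GR site, 28.2% had SUMO-2/3 of the wild-type line (interval 20.02 to 37.6). The share was 14.1% for such sites elsewhere, and 2 of the 110 had SUMO-2/3 of the 3KR line. The 110 were partly clumped. Dense windows of the chromosome 14 stretch described below held 21, 21, 27 and 30 wild-type GR sites. Of these, 15, 11, 19 and 21 were shared, beside 91.9% of all wild-type members. The same windows held 17, 30, 27 and 39 wild-type SUMO-2/3 sites, against 9, 8, 8 and 10 of the 3KR line. The interval does not cover such clumping, and the share without these windows was not tested. The 3KR members without a wild-type site had little SUMO-2/3, 5.99% against 5.01% elsewhere, a difference whose interval includes 0 (-0.67 to 2.63 points).

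SUMO-2/3 sites themselves were frequent in dense windows. A dense window held a mean of 11.9 wild-type SUMO-2/3 sites (SD 8.45, range 0 to 39) and 8.79 of the 3KR line (SD 5.00, range 1 to 26). Other windows with a GR site held 4.87 and 3.08, so the means were 2.45 and 2.85 times as high. Counting only SUMO-2/3 sites without GR of the same line, the means were 5.52 against 3.27 in the wild-type line and 3.64 against 1.98 in the 3KR line, or 1.69 and 1.84 times as high. In dense windows 53.7% of the SUMO-2/3 sites of the wild-type line and 58.6% of those of the 3KR line overlapped a GR site of that line, beside 34.3% and 37.6% over the whole lists. The windows were chosen for many GR sites, so a higher share of this kind follows in part from the rule. The wild-type line had the more SUMO-2/3 sites in 56 dense windows, the 3KR line in 27, and 8 windows were equal. Its SUMO-2/3 list was also the longer over the whole genome, with 12109 sites against 7784, of which 1085 and 800 lay in dense windows. Of all wild-type SUMO-2/3 sites in dense windows, 54.8% overlapped a 3KR SUMO-2/3 site, against 47.03% elsewhere and 47.7% over the whole list. Of the 3KR SUMO-2/3 sites 75.1% overlapped a wild-type one, against 74.6% elsewhere and 74.7% over the whole list. For the wild-type sites with GR the shares were 58.3% and 46.8%, and without GR 50.8% and 47.1%, where the interval of the difference was -0.85 to 8.19 points.

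The windows differed widely from each other in SUMO-2/3. The share of GR sites with SUMO-2/3 ran from 0 to 93.8% over windows in the wild-type line (median 40.9%) and from 0 to 50% in the 3KR line (median 21.7%). It was above the share of the whole list in 53 and 62 of the 91 windows. In the window from 80 to 81 Mb of chromosome 17, named here after its value was seen, 93.8% of 16 wild-type GR sites had SUMO-2/3, whereas in the windows from 68 to 69 Mb of chromosome 1, from 86 to 87 Mb of chromosome 15 and from 109 to 110 Mb of chromosome 2 none of 8, 9 and 12 had. By the longer SUMO-2/3 list, which was the wild-type list in each case, the chromosome 14 window from 100 Mb led with 39 wild-type and 10 3KR sites. The chromosome 8 window from 37 Mb followed with 36 and 14, and the window from 85 to 86 Mb of chromosome 16, with 34 and 22, tied with the chromosome 17 window from 80 Mb, with 34 and 26. Over both lists together the chromosome 17 and 16 windows held more than those of chromosomes 8 and 14. With sites of 1 peak joined, the chromosome 16 window held 29 wild-type SUMO-2/3 sites and that of chromosome 17 held 31. The chromosome 20 window from 49 Mb then held 32 and the chromosome 14 window from 90 Mb held 30. The place of the chromosome 16 window thus depends on cut peaks. In the chromosome 16 window, the best GR site, chr16:85628123-85629299, had 369 and 654 wild-type GR tags, 554 and 565 3KR GR tags, and SUMO-2/3 tags of 529 and 641 in the wild-type line and 227 and 433 in the 3KR line. Both wild-type SUMO-2/3 libraries were higher there, and the GR libraries of the 2 lines overlapped.

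Across the 91 windows, wild-type GR and SUMO-2/3 site numbers correlated with Pearson's r at 0.668 and Spearman's rho at 0.579, and those of the 3KR line with 0.268 and 0.259. For the SUMO-2/3 share at GR sites of either line, set against that of the other, r was 0.593 and rho 0.555. The points of each line share the same libraries and lists, and the windows were selected on 1 of the axes, so these are descriptions only.

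GR sites of the control line, made without a GR transgene, were also more frequent in dense windows. Of its 1016 sites, 135 lay in dense windows (13.3%). The mean was 1.48 per dense window against 0.394 in other windows with a GR site, or 3.76 times as high, and 30 dense windows had none. For the wild-type and 3KR GR lists, which the rule used, the means were 3.33 and 3.06 times as high. Of the 135 control-line sites, 88.1% overlapped a wild-type GR site and 91.1% a 3KR GR site, beside 82% and 87.7% of the whole control list. Most thus lay at GR sites that the rule counted, so neither their number nor these shares are independent of the choice of windows. A control-line site lay at 8.95% of wild-type members, beside 7.49% of the whole list and 7.29% elsewhere, a difference of 1.66 points (0.06 to 3.27). At 3KR members it was 6.10%, beside 4.79% of the whole list and 4.63% elsewhere, a difference of 1.46 points (0.39 to 2.54). Within each quintile of wild-type GR fold the difference was between 0.01 and 2.06 points and its interval included 0. For 3KR sites the differences from the top quintile down were 3.17, -0.46, 0.87, -0.57 and 0.38 points. Each of these intervals included 0 as well, and the sign was not the same throughout. The wild-type difference was 0.17 points with lists of equal length, 0.68 with at least 15 sites and 0.70 with centres within 200 bp, and the 3KR difference was 0.49 with at least 15 sites, 0.73 with centres within 200 bp and 0.68 over quintiles. The control list comes from 1 library and has no replicate check.

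The window with most control-line sites was that of chromosome 8 from 37 Mb, with 9. Its strongest, chr8:37159347-37160932, had 357 tags and a fold of 38.2. All 9 overlapped a wild-type GR site and 5 of them a 3KR site. The chromosome 7 window from 69 Mb and the chromosome X window from 106 Mb held 8 each. Those of chromosome X lay between 106916033 and 106991591, and all 8 overlapped GR sites of both transgene lines. At chrX:106961029-106962572, the best GR site of that window, GR tags were 463 in the control line, 429 and 1864 in the wild-type libraries and 814 and 741 in the 3KR libraries. The value of 1864 belongs to a wide peak that is also listed at the neighbouring site 1 of the chain.

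Glucocorticoid target genes could be set beside the windows only from general knowledge of hg19, since no annotation of that build was used here. Of a list of 40 such genes, 10 fall in a dense window on this basis. The list was chosen with earlier results of these data known, and the placement was made after the windows were known. The share of all genes that lie in dense windows was not available to set beside the 10. No count for the target list as a whole is read from this. FKBP5, which encodes a chaperone partner that lowers the hormone affinity of GR, belongs to the chromosome 6 window with the chain of 9 sites. That window held 12 wild-type and 28 3KR GR sites, all 12 of the former shared, 4 control-line sites, and 13 and 15 SUMO-2/3 sites. TSC22D3, which encodes the anti-inflammatory protein GILZ, belongs to the chromosome X window, with 17 wild-type and 23 3KR GR sites, all 17 shared, and 9 and 4 SUMO-2/3 sites.

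The windows of the other listed genes ranged from 0 to 23 wild-type SUMO-2/3 sites. The window of SGK1, a kinase that promotes sodium uptake, held 17 wild-type and 25 3KR GR sites with SUMO-2/3 at 5 in each line. That of DUSP1, a phosphatase that switches off MAP kinases, held 11 and 20 with SUMO-2/3 at 6 in each line, and that of TNFAIP3, an inhibitor of NF-κB signalling, held 10 and 20 with SUMO-2/3 at 4 and 5. ERRFI1, an inhibitor of the EGF receptor, lies in a window with 17 and 27 sites. KLF6, a zinc finger transcription factor, lies in one with 16 and 21. GADD45A, a growth arrest gene, lies in a window with 8 and 20 GR sites, where SUMO-2/3 was at 0 wild-type and 2 3KR sites.

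PRKCE, which encodes a protein kinase C, extends over 2 adjoining dense windows with 17 and 25 and with 13 and 24 sites. RPTOR, a subunit of the mTOR complex that controls growth, lies in a window with 15 and 20 GR sites and 23 and 19 SUMO-2/3 sites. NR3C1, the gene of GR itself, and AUTS2, a gene of neural development, are not on the list and were named after their windows were seen. The NR3C1 window held 16 wild-type and 23 3KR GR sites, with SUMO-2/3 at 2 and 1 of them. The AUTS2 window is that of chromosome 7 from 69 Mb, with 22 and 29 GR sites, SUMO-2/3 at 8 in each line and 8 control-line sites.

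The tag ratio between the lines was centred on the surroundings of each window because broad stretches of the genome differed between the lines in both antibodies. It is the median over shared sites of log2 tags, wild-type over 3KR, averaged over the libraries, minus the same median over the surrounding 10 Mb without the window. Before centring, the median over dense windows was -0.39 for GR, against -0.37 elsewhere. After centring it was 0.07 (SD over windows 0.18, range -0.44 to 0.43), with 58 windows above 0 and 33 below, against a median of -0.00 (SD 0.27) in 1307 other windows. By pair of libraries the dense median was 0.05, -0.00, 0.05 and 0.04, each below the 0.07 over all libraries. A median of averaged ratios need not lie within the range of the pairs. The median over all libraries became 0.02 without 3KR replicate 1 and -0.04 when centred on all sites of the genome, so its direction depends on the centring. No test was made, since 2 libraries against 2 cannot give an exact two-sided permutation p below 0.333.

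Few windows stood apart from their surroundings in every pair of libraries. The 4 pairs put the GR ratio on the same side of 0 in 30 windows (33.0%), beside 44.8% of all windows with a ratio, 19 above and 11 below. A centred ratio above 0.2 was found in 18 dense windows, beside 20.7% of all windows, and below -0.2 in 10, beside 22.7%. For SUMO-2/3 the centred median was 0.04 over 74 windows (range -0.95 to 0.83), with the 4 pairs above 0 in 20 windows and below in 12. These make up 43.2% of the 74, beside 41.3% of all windows with a SUMO-2/3 ratio. Its direction too turned when centred on all sites (-0.03) and with the grid shifted by 0.5 Mb (-0.02). GR and SUMO-2/3 lay on the same side of 0 in all their pairs in 7 of the 74 windows, above in 4 and below in 3, beside 12.2% of all windows with both ratios.

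**Figure D5:**
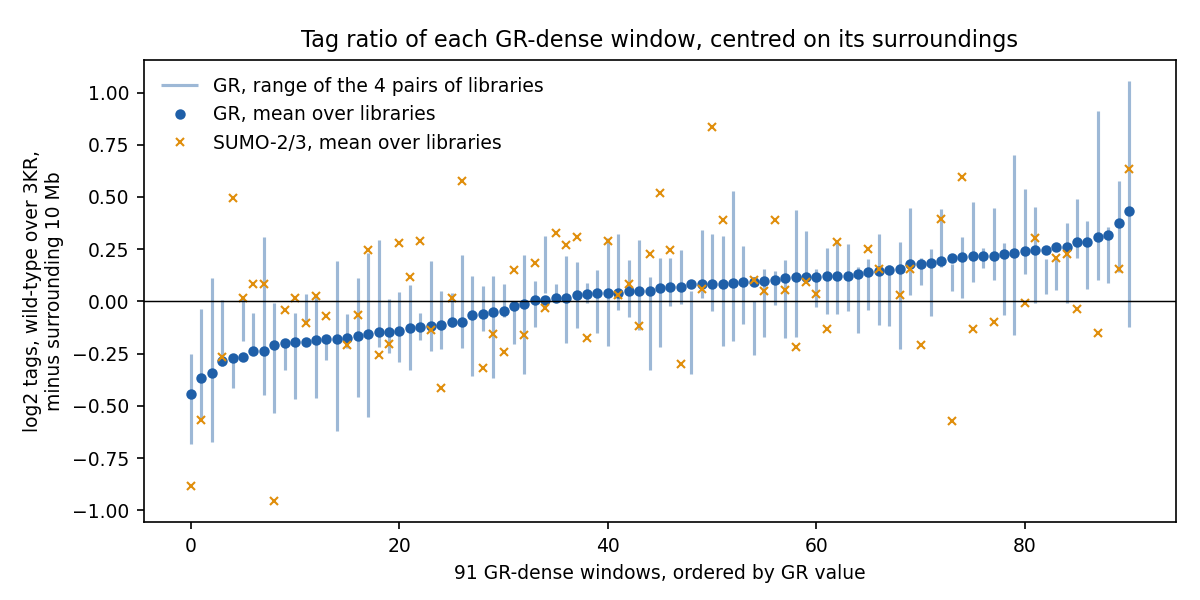
Log2 ratio of tags, wild-type over 3KR, at shared sites of each of the 91 GR-dense windows minus that of the surrounding 10 Mb, ordered by the GR value. Circles give the GR value over all libraries, bars the range of the 4 pairs of wild-type and 3KR libraries, and crosses the SUMO-2/3 value of the 74 windows that have one. A circle is a median of averaged ratios and can lie outside its bar, as in the window from 55 Mb of chromosome 18 (0.26, bar from 0.05 to 0.21). The circles run from -0.44 to 0.43, and in 61 windows the bar crosses 0.

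The windows at the ends of this order were few and not all stable. The highest GR value, 0.43 in the window from 54 to 55 Mb of chromosome 12 (13 shared sites), ranged from -0.12 to 1.06 over the pairs. The chromosome 7 window from 69 Mb had 0.38 (0.14 to 0.57, 19 shared sites) and the window from 95 to 96 Mb of chromosome 10 had 0.32 (0.09 to 0.36, 15 shared sites). Per kb of peak these 2 values were 0.11 and 0.07. The chromosome 7 value was 0.11 without wild-type replicate 1 and 0.06 against the rest of its chromosome, and the chromosome 10 value was 0.14 without 3KR replicate 2. The lowest were -0.44 in the window from 89 to 90 Mb of chromosome 14 (-0.68 to -0.25, 15 shared sites), -0.36 in the window from 22 to 23 Mb of chromosome 10 (-0.57 to -0.03, 11 shared sites) and -0.34 in the chromosome 1 window from 232 Mb (-0.67 to 0.11, 9 shared sites). The chromosome 10 window from 22 Mb was at 0.05 per kb of peak and 0.04 by fold enrichment, so its direction depends on the measure. Its best site, chr10:22838958-22844712, was 5755 bp wide, with 317 and 617 wild-type GR tags, 990 and 1035 3KR tags and 541 control-line tags. The chromosome 14 value was -0.68 without wild-type replicate 1 and -0.10 against the rest of its chromosome.

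The chromosome 14 window from 89 Mb had a low ratio within a stretch that was high in the wild-type line for both antibodies. Its uncentred GR ratio was 0.16, and those of the windows after it up to the one from 103 Mb ranged from 0.13 to 0.86, with 0.62 and 0.75 in the next 2. The window from 97 Mb, at 0.13, was lower than the 89 Mb window. The SUMO-2/3 ratio was 0.39 in the 89 Mb window and from 1.02 to 1.66 in the later windows that have one. The windows from 82 to 89 Mb had too few shared sites for a ratio, so the 89 Mb window has no neighbour with a value on that side. Centred on all sites of the genome the GR value of the 89 Mb window was 0.51 in place of -0.44. Its best site, chr14:89673680-89674552, had 205 and 325 wild-type GR tags and 322 and 236 3KR tags, which overlap, and SUMO-2/3 in the 3KR line only, with 77 and 131 tags.

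The 6 windows with more listed wild-type than 3KR GR sites had high GR tag ratios. Site numbers and tags come from the same GR libraries, so a high ratio follows in part from this choice of windows. Of the 6 windows, 3 were on chromosome 14, from 90, 95 and 100 Mb, and the others were from 37 Mb of chromosome 8, 49 Mb of chromosome 20 and 156 Mb of chromosome 3. With sites of 1 peak joined, the chromosome 3 window held 22 sites in each list, so its excess of wild-type sites rests on cut peaks. The chromosome 14 window from 90 Mb was then no longer dense. All 6 had an uncentred GR ratio above 0, between 0.15 and 0.83, as had 12 of the 91 dense windows. Their surrounding 10 Mb was above 0 as well, between 0.12 and 0.64, as in 9 of the 91. Together they held 186 wild-type and 60 3KR SUMO-2/3 sites, against 899 and 740 in the other 85 windows. Uncentred SUMO-2/3 ratios were between 0.75 and 1.66 in these 6, but a ratio above 0 was usual for this antibody, with 65 of 74 dense windows above 0 and a median of 0.38. What sets the level of such a stretch was not tested.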

How the data were processed

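Peak lists of 9 of the 11 samples were analysed. The control line's input and IgG samples were not analysed here. The submitters' processing notes name CASAVA, Bowtie 0.12.9 and the build hg19. The peak caller is not given in the sources used here. Each site has, per the file headers, a tag count, a false discovery rate in percent and a fold enrichment (a ratio). Deposited tag counts are raw whole tags of the peak as called in that library. Listed sites had at least 51 tags, a fold of at least 8.01 and a false discovery rate of at most 9.99 percent. The deposited score column, headed as a log p, was not used.

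Sites were put in 1 Mb windows by their start and overlapped when they shared 1 bp. Windows named in the text are the 10 with most GR sites in the longer list (ties by the sum), the 3 with most control-line sites, the 3 with most SUMO-2/3 sites in the longer list (a tie by GR sites) and the 3 highest and 3 lowest centred GR ratios with at least 5 shared sites. Sites named are the best by fold rank in each. A window ratio needed 3 shared sites and 5 around it. Intervals are exact Clopper-Pearson intervals, or normal intervals for differences of shares. They cover counting error only. No count model was fitted, since tags were counted in peaks that differ between lists. Sites sharing a peak were recognised by identical length, summit, tags and fold of a library at adjacent sites. Same-numbered libraries deviated together between lines (r 0.403 for GR and 0.354 for SUMO-2/3 over shared sites), but with 2 numbers the numbers were not taken to pair the samples. Analyses used Python 3.11.15, pandas 2.3.3 and SciPy 1.17.1, and were tested on simulated data. The windows, members and lists were chosen with earlier results of these data known.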

Additional observations from a re-analysis of the deposited data

How the results depend on the processing

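Each percentage-point value below is members minus other GR sites. With at least 15, at least 25 or 20 sites in both lists, the windows numbered 335, 31 and 13 and the members 9905, 1382 and 644. The sites above the median fold with 10 sites gave 166 windows, and a 3KR list of equal length 17 windows with 686 members. In the order 15, 25, both lists and equal length, wild-type SUMO-2/3 sites per window were 9.57, 14.6, 20 and 20.2 (strong sites 10.9), those of the 3KR line 6.56, 10.3, 11.2 and 10.5 (7.60) and control-line sites 0.982, 2.03, 2.38 and 1.88. The median distance of wild-type sites was 16.4, 10.997, 10.1 and 9.36 kb (25.2). That of 3KR sites was 10.96, 7.84 and 7.70 kb for 15, 25 and both lists (17.7 for strong sites). Joining sites of 1 peak, chosen after seeing the data, gave 14.9 and 10.0 kb. The wild-type SUMO-2/3 difference was 11.1 points with 25 sites, 13.3 in both lists, 14.7 with equal length, 1.87 with centres within 200 bp and 3.19 over quintiles. For the 3KR line it was 5.92 with 15 sites, 10.2, 10.7, 4.76 and 5.29 in the last 4 of these. The shared share of wild-type sites differed by 0.284 points on the shifted grid, 0.890 with 25 sites, -6.92 in both lists, -7.93 with equal length and -1.92 with centres within 200 bp. For the 3KR line it differed by 8.57 with 25 sites, 22.4, 14.8 and 2.69. The 3KR control-line difference was 2.69 points in both lists, 2.53 with 25 sites, 0.492 with 15, 0.730 with centres within 200 bp, 0.691 with a reciprocal overlap and 0.678 over quintiles. The wild-type one was 2.76 with 25 sites, 0.172 with equal length, 0.676 with 15, 0.695 with centres within 200 bp, 0.997 with a reciprocal overlap and 0.733 over quintiles. The cause of these shifts was not tested.

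The centred GR median was 0.0384 with the window kept in its surroundings, 0.0380 against the rest of the chromosome, -0.0413 against all sites, 0.0321 per kb of peak, 0.0271 by fold, 0.00803 on the shifted grid and 0.0309 with 15 sites. Leaving out each library in turn gave 0.0179 to 0.0626, the lowest without 3KR replicate 1. The SUMO-2/3 median was -0.0284 against all sites and -0.0158 on the shifted grid, and 0.00760 to 0.102 without each library in turn, the highest without wild-type replicate 1. With same-numbered libraries paired as a block both medians stayed at 0.07 and 0.04 by construction. Window values turned sign against all sites on chromosome 14 from 89 Mb (0.513), and per kb of peak and by fold on chromosome 10 from 22 Mb (0.0478 and 0.0390). With chromosome 1 left out, also chosen after seeing the data, no recomputed share difference left its interval and no count moved by over 1.5 times. Motif searches were not run. Precision is limited by 2 libraries a group, 1 control-line library and lists cut at a fold of 8.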
